A study of Mus musculus with 36 samples.

Results

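The 8 genes described here, Sirpa, Itgam, Zeb2, Esam, Csf1r, Tbx21, Dab2 and Igf2r, are commonly listed among those that mark or shape type 2 conventional dendritic cells (cDC2). They were taken by name from a table of 53299 gene symbols, and their levels were compared between cDC2 and the other kind of conventional dendritic cell, cDC1. Both were grown from mouse bone marrow with FLT3L, the ligand of the receptor FLT3. The cells received nothing, LPS (lipopolysaccharide, a bacterial product that TLR4 senses), PGPC (an oxidized phospholipid), or LPS and PGPC together, and those 4 treatments in 2 kinds of cell make 8 groups of 3 libraries. Replicates 1, 2 and 3 are cDC1 and replicates 4, 5 and 6 are cDC2 throughout. Left out were the 12 libraries with alum and, for its total of 3805 counts, replicate 6 of the PGPC-treated cDC2, so that 23 of 36 libraries were used and cDC2 with PGPC has n = 2. The labels give no mouse strain, age, dose, time, sort or gate. They call the replicates biological without saying whether they came from separate mice or cultures, so p-values measure only the spread between these libraries. Levels are in CPM, counts scaled to the corrected size of each library, as mean ± standard deviation (SD) with n = 3 unless stated, and log2 fold changes carry their standard error (SE). A gene is called higher or lower where its adjusted p is under 0.05 in edgeR's quasi-likelihood test, with Benjamini-Hochberg adjustment over the 12464 genes tested.

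Conventional dendritic cells take up antigen and show it to T cells. The cDC1 kind depends on the factors IRF8 and BATF3 and is known for cross-presentation to CD8 T cells, whereas cDC2 mainly prime CD4 T cells. Sirpa encodes SIRPα, an inhibitory receptor that binds CD47 on other cells, and Itgam encodes CD11b, an integrin alpha chain of complement receptor 3. Csf1r is the receptor for the growth factor M-CSF. Dab2 is an adaptor that gathers cargo receptors into clathrin-coated pits, and Igf2r is a receptor that sorts enzymes tagged with mannose 6-phosphate to lysosomes. Zeb2 is a zinc finger repressor, Tbx21 encodes the T-box factor T-bet, which marks a subset of cDC2, and Esam is an adhesion molecule of endothelium and of Notch2-dependent splenic cDC2. Macrophages also express genes of this list, among them Csf1r, Dab2 and Itgam.

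The name of the gene list did not hold evenly in these data. In untreated cells Sirpa, Itgam, Dab2 and Igf2r were called higher in the libraries labelled cDC2, Csf1r and Zeb2 missed the threshold, and Tbx21 and Esam had their larger mean in cDC1. Esam held 83 counts in 12 of the 23 libraries and did not pass the filter on low counts, so 7 of the 8 genes were tested. The differences of Sirpa, Dab2 and Igf2r between untreated cells were known when the genes were chosen.

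Library totals ran from 243886 to 16601013 counts, with 9705 to 15617 genes detected. The ribosomal RNA locus held 53.2 ± 16.5% of counts in untreated cDC1 and 56.5 ± 6.25% in cDC2 with PGPC (n = 2), against group means of 21.9% to 32.5% elsewhere. Markers of monocytes or macrophages (16 genes) summed to 8083 to 9203 CPM in untreated cDC2 and 1911 to 5724 CPM in untreated cDC1. Markers of neutrophils or their precursors reached 1163 CPM in cDC1 and 3.91 CPM in cDC2, and those of T or NK cells at most 5.15 CPM. In bulk samples fewer cells of a type and less RNA per cell cannot be told apart.

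In the mouse genome (GRCm38), Sirpa lies at chr2:129592835-129632228, Itgam at chr7:128062640-128118491, Esam at chr9:37528078-37538319 and Dab2 at chr15:6299788-6440712, all on the plus strand. Zeb2 at chr2:44983632-45117395, Tbx21 at chr11:97098071-97115331 and Igf2r at chr17:12682406-12769664 are on the minus strand. RefSeq promoter sequences (GRCm38.p6) matched Itgam, Zeb2, Tbx21, Dab2 and Igf2r among these. Shown are windows of 2 pairs of genes whose levels varied together over the libraries, Itgam with Zeb2 and Dab2 with Igf2r. Each is the 250 bases before an annotated start, 5′ to 3′ on the gene's strand, with matches to the searched motifs in capitals.
Itgam, chr7:128062390-128062639, plus strand: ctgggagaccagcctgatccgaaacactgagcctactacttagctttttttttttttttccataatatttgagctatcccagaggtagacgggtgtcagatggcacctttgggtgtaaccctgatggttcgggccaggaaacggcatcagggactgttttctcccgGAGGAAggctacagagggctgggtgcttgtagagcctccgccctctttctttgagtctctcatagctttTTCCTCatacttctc
Zeb2, chr2:45117443-45117692, minus strand: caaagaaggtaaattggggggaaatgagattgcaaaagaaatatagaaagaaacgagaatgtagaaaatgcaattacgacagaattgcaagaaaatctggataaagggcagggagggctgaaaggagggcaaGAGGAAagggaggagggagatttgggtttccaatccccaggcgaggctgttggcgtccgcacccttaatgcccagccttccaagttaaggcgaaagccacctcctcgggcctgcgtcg
Dab2, chr15:6299539-6299788, plus strand: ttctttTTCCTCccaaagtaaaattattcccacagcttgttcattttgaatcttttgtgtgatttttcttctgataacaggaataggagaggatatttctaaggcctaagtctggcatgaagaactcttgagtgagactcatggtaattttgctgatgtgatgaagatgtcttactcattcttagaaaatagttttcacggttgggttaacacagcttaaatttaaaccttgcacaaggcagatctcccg
Dab2, chr15:6386498-6386747, plus strand: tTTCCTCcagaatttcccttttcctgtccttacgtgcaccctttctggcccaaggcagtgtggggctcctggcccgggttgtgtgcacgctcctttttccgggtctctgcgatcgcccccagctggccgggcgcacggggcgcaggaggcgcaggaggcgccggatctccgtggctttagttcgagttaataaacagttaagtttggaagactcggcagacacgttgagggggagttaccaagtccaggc
Igf2r, chr17:12769707-12769956, minus strand: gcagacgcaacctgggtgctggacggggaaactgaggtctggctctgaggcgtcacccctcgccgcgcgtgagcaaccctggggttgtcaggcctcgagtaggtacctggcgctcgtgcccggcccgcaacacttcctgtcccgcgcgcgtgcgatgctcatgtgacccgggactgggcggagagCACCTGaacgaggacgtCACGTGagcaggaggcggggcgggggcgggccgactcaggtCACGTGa

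The motifs were GAGGAA (the core of the myeloid factor PU.1), CACCTG (the E-box of ZEB factors), TGACTCA (AP-1), CACGTG (the E-box of MiT and TFE factors) and the consensus sites of NF-kB and of interferon regulatory factors, each on both strands. Of 32817 promoter windows of this length, 23.3% held GAGGAA, 17.2% CACCTG, 6.02% CACGTG and 4.46% TGACTCA. The Itgam window holds GAGGAA 84 bases before the start and, on the other strand, 15 bases before it. The Zeb2 window shown holds it 118 bases before the start, and is that of 1 of 4 annotated starts. The other 3 windows also hold GAGGAA. Of these, 2 overlap and share that match, and the remaining window holds TGACTCA 189 bases (other strand) and 132 bases before its start. In the Dab2 windows it lies on the other strand 244 and 249 bases before the start. The Igf2r window holds CACGTG at 48 and 7 bases and CACCTG at 65 bases before the start. No NF-kB or interferon regulatory factor site by these letters was in the windows of these genes. Both are rare, in 0.36% and 2.97% of all windows. The matches describe the letters only and were not tied to the levels.

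Per kilobase of annotated exon, Csf1r was the most abundant of the 8 genes in untreated cDC2 at 289.7 ± 55.6 CPM per kilobase, followed by Sirpa at 223 ± 46.3. Dab2 came next at 34.1 ± 7.02 and Itgam at 27.9 ± 5.61, then Zeb2 at 8.25 ± 1.96 and Igf2r at 6.04 ± 3.18. Within each of these 3 neighbouring pairs the means differed by less than their summed SDs. Tbx21 and Esam were lowest, at 0.138 ± 0.239 and 0.0611 ± 0.0529 CPM per kilobase. In untreated cDC1 Csf1r (101 ± 11.3) and Sirpa (72.9 ± 29.1) again led, while Dab2 (1.57 ± 0.839) ranked sixth and Igf2r (0.133 ± 0.144) last. With LPS, Sirpa ranked first in both kinds, at 430.1 ± 322 in cDC2 and 152 ± 29.3 CPM per kilobase in cDC1.

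**Figure D1:**
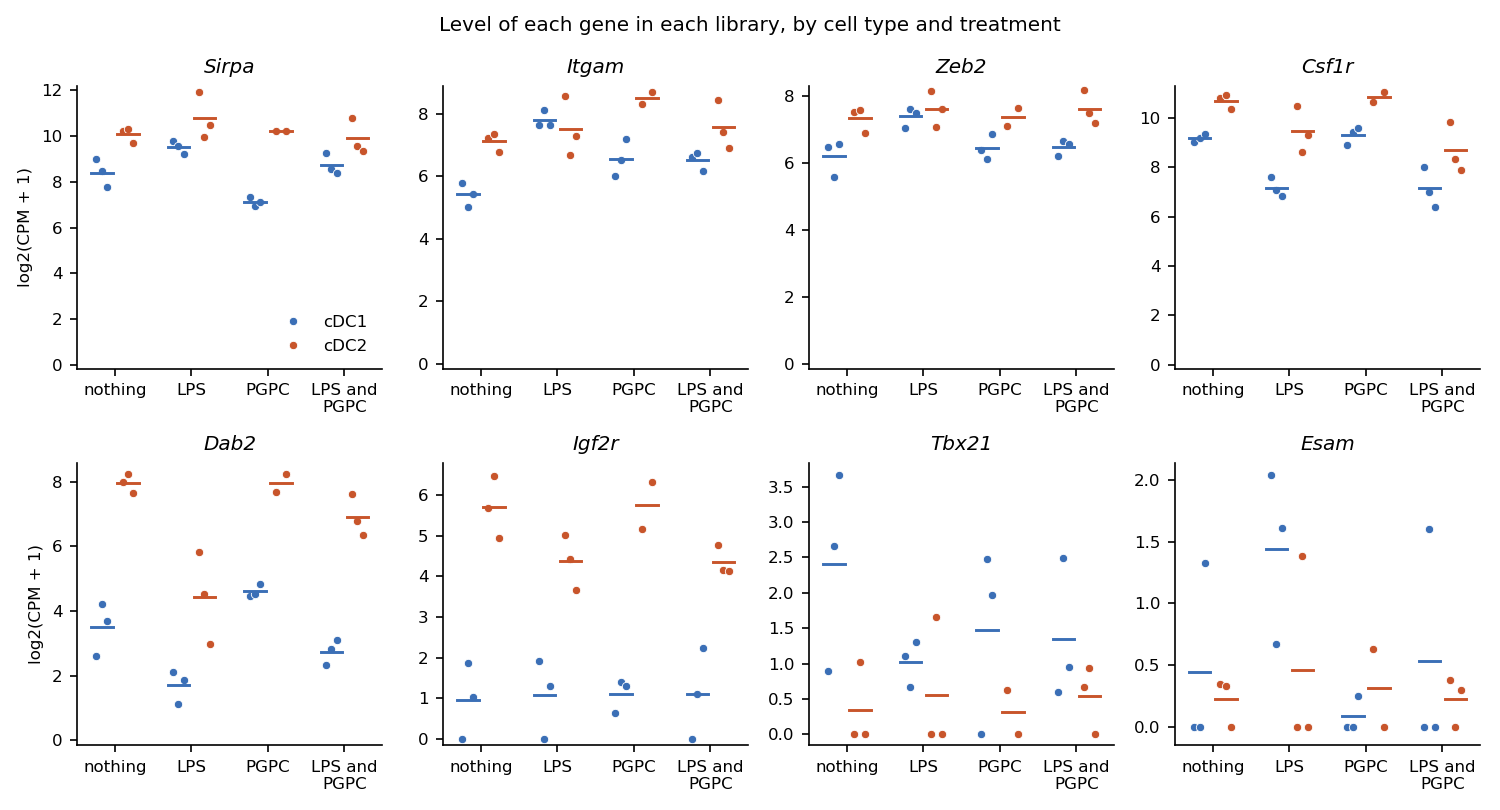
Level of each of the 8 genes in the 23 libraries as log2(CPM + 1), by treatment and kind of cell; points are libraries and horizontal bars the mean of the log2 values. Dab2 and Igf2r of cDC2 lie above cDC1 in each treatment, Itgam and Zeb2 overlap with LPS, and Tbx21 and Esam stay near 0 in cDC2.

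The endocytic genes Dab2 and Igf2r had the largest differences of the tested genes. Dab2 stood at 252, 301 and 198 CPM in untreated cDC2 and at 5.14, 17.4 and 11.9 CPM in untreated cDC1. Every cDC2 library lay above every cDC1 library, a 20.8-fold difference (log2 fold change 4.38 ± 0.58, adjusted p = 4.78e-05). Igf2r stood at 50.5, 88.2 and 29.9 CPM in cDC2 and at 0, 2.65 and 1.06 CPM in cDC1, again without overlap and 36.9-fold higher (5.20 ± 0.94, adjusted p = 0.000824). These were 189, 342 and 8 counts in cDC2 and 0, 21 and 7 in cDC1, so the size of this fold rests on few counts. In untreated cells 4 of 7 genes were called higher in cDC2, against 4% of all genes, and 6 had all cDC2 libraries above all cDC1 libraries, against 14.9%. The median log2 fold change of the 7 was 1.62, and over all genes -0.10. As the untreated differences of Sirpa, Dab2 and Igf2r were known when the genes were chosen, these shares and medians are descriptions only. The same holds for the shares and medians under the other treatments given below.

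Both genes were called higher in cDC2 under each treatment as well. With LPS, Dab2 stood at 56.2, 22.1 and 6.84 CPM in cDC2 and 3.30, 1.17 and 2.65 CPM in cDC1 (log2 fold change 3.47 ± 0.59, adjusted p = 0.000462), the closest approach of the 2 kinds. With PGPC the difference was 3.42 ± 0.57, adjusted p = 0.0004, and with LPS and PGPC 4.44 ± 0.57, adjusted p = 2.93e-05. These calls of Dab2 held in each alternative fit and with each library left out, though without replicate 4 of cDC2 with LPS the value there was 2.51. Igf2r was higher by 3.63 ± 0.89, adjusted p = 0.0103 with LPS, 5.61 ± 0.98, adjusted p = 0.00058 with PGPC and 3.56 ± 0.84, adjusted p = 0.0105 with LPS and PGPC. In the last comparison its call was lost without replicate 2 of cDC1 (3.36, adjusted p = 0.0538). The libraries do not mark strand, and the antisense transcript Airn that overlaps Igf2r held 25 counts beside 1222 of Igf2r.

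Sirpa and Itgam, the genes of the classical surface markers, were called 3.07-fold and 3.33-fold higher in untreated cDC2. Sirpa stood at 1189, 1262 and 837 CPM in cDC2 and 503, 354 and 217 CPM in cDC1 (1.62 ± 0.46, adjusted p = 0.0264). Itgam stood at 149, 162 and 108 CPM in cDC2 and 54.8, 31.5 and 42.5 CPM in cDC1 (1.73 ± 0.47, adjusted p = 0.0176). The kinds did not overlap for either gene, and both genes were well detected in cDC1. Gm49368, annotated on the same strand across Itgam, held 332 counts beside 17167 of Itgam over the 23 libraries, and how reads were shared between them was not tested. Sirpa's call was lost when replicate 2 or 3 of cDC1 or replicate 4 or 5 of cDC2 was left out (adjusted p = 0.0906, 0.1, 0.0579 and 0.103). Itgam's was lost without replicate 2 of cDC1 or 5 of cDC2 (adjusted p = 0.0976 and 0.0775).

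With PGPC, Sirpa showed its widest gap, at 1209 and 1208 CPM in cDC2 and 161, 122 and 136 CPM in cDC1, 8.63-fold higher (3.11 ± 0.52, adjusted p = 0.000372). Itgam stood at 316 and 418 CPM in cDC2 and 63.0, 91.0 and 145 CPM in cDC1 (1.87 ± 0.49, adjusted p = 0.0146), a call lost without replicate 1 of cDC1 or 5 of cDC2 (adjusted p = 0.0604 and 0.136). Leaving out replicate 5 leaves cDC2 with PGPC 1 library, which the fit then assumes to vary like the other groups. Together with Dab2 and Igf2r, 4 of 7 genes were called higher with PGPC against 6.83% of all genes, and 6 did not overlap against 19%. The median of the 7 was 1.87, beside -0.19 over all genes. These shares and medians, too, are descriptions only, given how the genes were chosen.

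With LPS the surface genes parted. Sirpa stood at 3916, 981 and 1439.9 CPM in cDC2 and 886, 752 and 598 CPM in cDC1 (1.50 ± 0.46, adjusted p = 0.0443). Without replicate 4 of cDC2, the highest library, the log2 fold change was 0.70 (adjusted p = 0.319). The call was also lost without any 1 of the cDC1 libraries and with only the compared groups fitted. Itgam overlapped between the kinds, at 377, 102 and 154 CPM in cDC2 and 201, 279 and 198 CPM in cDC1 (-0.10 ± 0.45, adjusted p = 0.942, 95% interval -1.01 to 0.82). With LPS and PGPC neither surface gene was called (Sirpa 1.26 ± 0.46, adjusted p = 0.101, Itgam 1.21 ± 0.45, adjusted p = 0.108), although their libraries did not overlap.

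Csf1r, the M-CSF receptor, lies at chr18:61100598-61132149 on the plus strand. In untreated cells it stood at 1800.0, 1911 and 1308 CPM in cDC2 and 516, 582 and 646 CPM in cDC1, without overlap, and just missed the threshold (1.53 ± 0.50, adjusted p = 0.0501). Hmgxb3, which overlaps Csf1r on the opposite strand, held 3953 counts beside 73471 of Csf1r. Untreated, Csf1r was called with median-ratio scaling, without the filter on low counts, without ribosomal RNA genes, with only the compared groups, and in DESeq2. The same 5 alternatives called Csf1r with PGPC (1.52 ± 0.54, adjusted p = 0.0638). With LPS it stood at 1411, 388 and 625 CPM in cDC2 and 193, 133 and 113 CPM in cDC1, 5.51-fold higher (2.46 ± 0.51, adjusted p = 0.00263). This made 4 of 7 genes called higher with LPS against 5.59% of all genes, and 4 without overlap against 13.5%. With LPS and PGPC, Csf1r stood at 905, 319 and 233 CPM in cDC2 and 258, 127 and 82.6 CPM in cDC1, overlapping but called (1.64 ± 0.50, adjusted p = 0.0449). That call was lost without replicate 4 of cDC2 (0.83, adjusted p = 0.433), without replicate 2 or 3 of cDC1 (adjusted p = 0.143 and 0.179), and with only the compared groups. With both agents 3 of 7 genes were called higher against 4.59% of all genes, and 5 did not overlap against 14%. The shares with LPS and with both agents are likewise descriptions only.

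Replicate 4 of cDC2 was the highest of its group for Sirpa, Itgam, Zeb2, Csf1r, Dab2 and Igf2r, both with LPS and with LPS and PGPC. With LPS, the summed monocyte or macrophage markers were 8561, 4501 and 3256 CPM in replicates 4, 5 and 6. With LPS and PGPC they were 10210.0, 4919.9 and 4104 CPM, so that replicate 4 was highest there too. The markers did not all vary alike. Apoe ran from 660 to 4021 CPM with LPS and from 1146 to 4873 CPM with both agents. Adgre1 ran from 441 to 2263 CPM and from 183 to 1048 CPM. With both agents C1qb (236 to 262 CPM) and Cd68 (261 to 300 CPM) varied little. The part of these markers in the differences above was not tested.

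**Figure D2:**
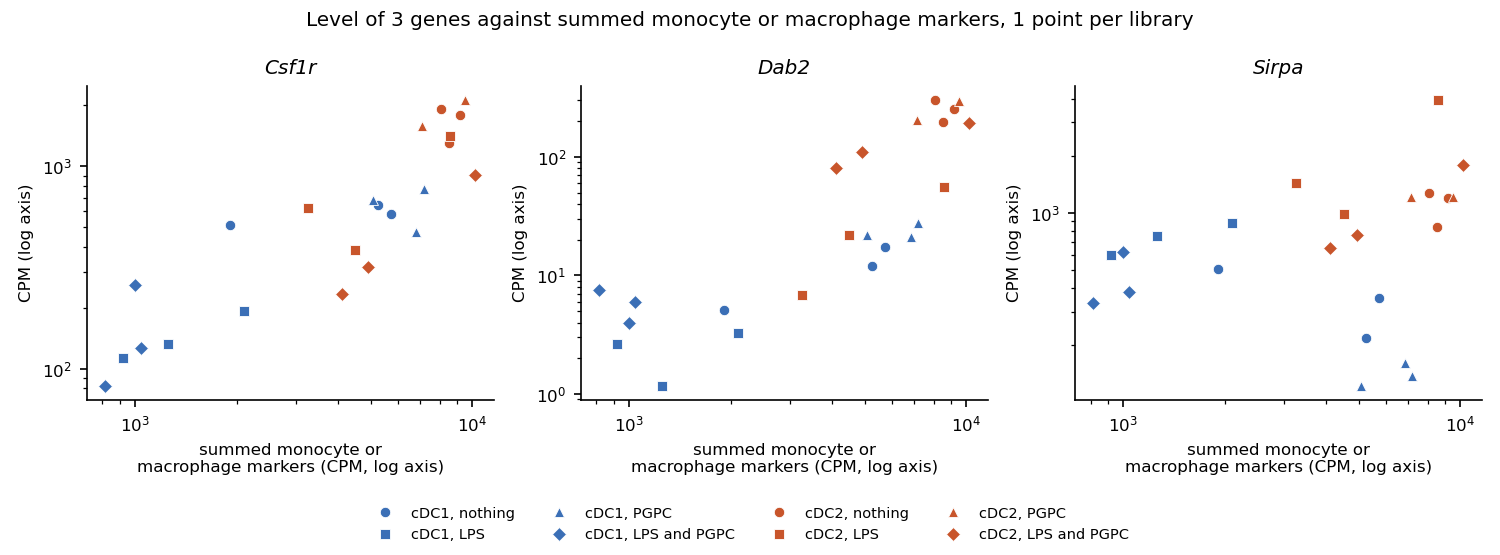
Level of Csf1r, Dab2 and Sirpa (CPM, log axis) against the summed level of 16 monocyte or macrophage markers (CPM, log axis), 1 point per library. The 6 cDC1 libraries given LPS, alone or with PGPC, hold at most 258 CPM of Csf1r and 2097 CPM of the markers, and cDC1 with PGPC combines the lowest Sirpa, 122 to 161 CPM, with 5076 to 7205 CPM of the markers.

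Neither of the transcription factor genes, Zeb2 and Tbx21, was called between the kinds within a treatment. Zeb2 stood at 184, 191 and 119.5 CPM in untreated cDC2 and 88.2, 46.6 and 95.1 CPM in cDC1, without overlap but not called (1.12 ± 0.38, adjusted p = 0.0614). It was called with median-ratio scaling, without ribosomal RNA genes, with only the compared groups, and in DESeq2. It was not called with PGPC (0.91 ± 0.42, adjusted p = 0.155) or with LPS and PGPC (1.19 ± 0.38, adjusted p = 0.0547), although with LPS and PGPC it was called with median-ratio scaling, without ribosomal RNA genes, in DESeq2 and without replicate 6 of cDC2 (adjusted p = 0.0382). With LPS the kinds overlapped (0.27 ± 0.37, adjusted p = 0.751, 95% interval -0.50 to 1.04). The antisense transcript Zeb2os held 24 counts beside 16147 of Zeb2. Tbx21 stood at 0.857, 5.31 and 11.6 CPM in untreated cDC1 (120 counts) and 0, 1.03 and 0 CPM in cDC2 (4 counts). The groups overlapped and no difference was called (-3.62 ± 1.75, adjusted p = 0.197), nor with LPS (-0.49 ± 1.65, adjusted p = 0.914), PGPC (-2.60 ± 2.22, adjusted p = 0.482) or both (-2.00 ± 1.52, adjusted p = 0.512).

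Esam was barely detected. Its 43 counts in cDC1 with LPS were the most in any group (3.12, 0.587 and 2.06 CPM). Untreated cDC1 held 10 counts, all in replicate 3, cDC1 with LPS and PGPC held 18, all in replicate 2, and cDC1 with PGPC held 3. The cDC2 groups held 2 counts untreated, 3 with LPS, 1 with PGPC and 3 with both. With LPS the cDC2 level was 0.235 (exact 95% counting interval 0.0467 to 0.735) of that in cDC1, and untreated it was 0.398 (exact 95% counting interval 0.0424 to 1.87). Such intervals treat the pooled reads of a group as independent and do not cover the spread between libraries. Replicate 1 held 35 of the 43 counts in cDC1 with LPS. As reads carry no molecular identifiers, copies made in amplification are not covered either.

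Averaged over the 4 treatments, 6 of 7 genes were called higher in cDC2, against 16.2% of all genes. The average includes the untreated libraries, whose differences in Sirpa, Dab2 and Igf2r were known at the choice of genes. Igf2r was 22.7-fold higher (4.50 ± 0.46, adjusted p = 5.84e-08) and Dab2 15.2-fold (3.92 ± 0.29, adjusted p = 4.68e-10). Sirpa was 3.66-fold higher (1.87 ± 0.24, adjusted p = 1.72e-06), Csf1r 3.45-fold (1.79 ± 0.26, adjusted p = 8.3e-06), Itgam 2.27-fold (1.18 ± 0.23, adjusted p = 0.000345) and Zeb2 1.83-fold (0.87 ± 0.19, adjusted p = 0.00114). Tbx21 was not called (-2.18 ± 0.90, adjusted p = 0.0624), but was called lower without the filter and without replicate 5 of cDC2 with LPS (-3.49), replicate 5 of untreated cDC2 (-3.31) or replicate 1 of cDC1 with PGPC (-2.33). The other 6 calls held with each library left out. When all 36 libraries shared 1 estimate of the spread, the averaged calls of Dab2 and Igf2r remained and those of Sirpa, Csf1r, Itgam and Zeb2 did not. Within single treatments that fit kept the calls of Dab2 in each, of Igf2r untreated and with PGPC, and none of Sirpa, Itgam or Csf1r.

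**Figure D3:**
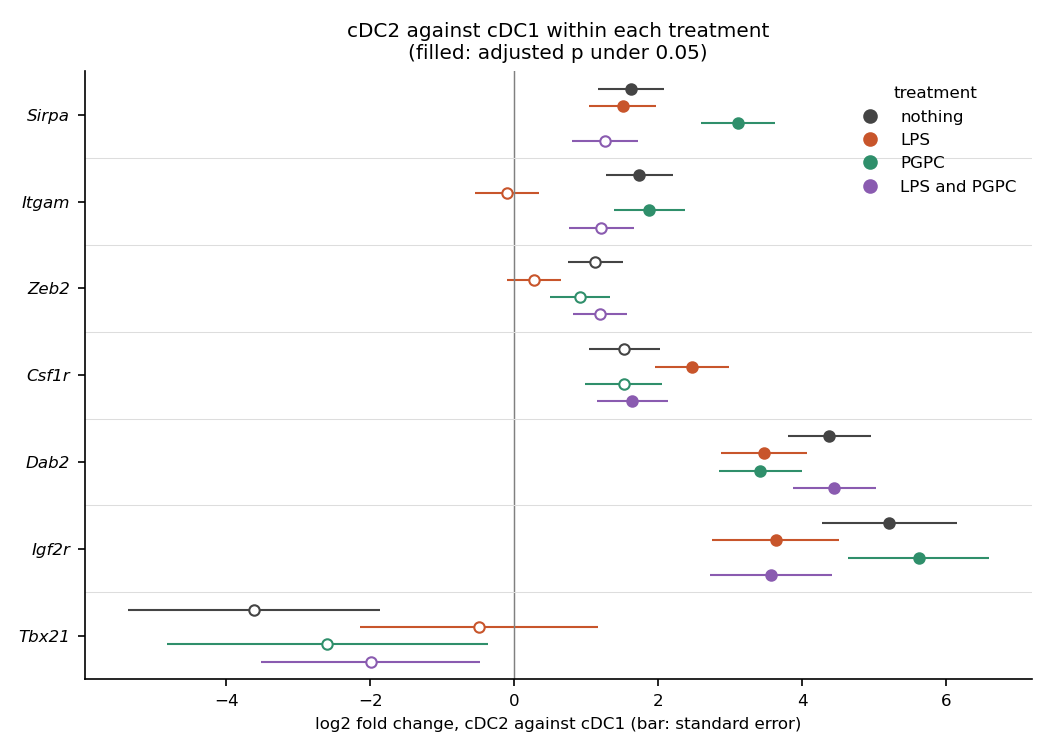
Log2 fold change of the 7 tested genes, cDC2 against cDC1, within each treatment, with standard errors as bars and filled points where the adjusted p was under 0.05. Dab2 and Igf2r are filled in all 4 treatments, Sirpa in 3, Itgam and Csf1r in 2, and Zeb2 and Tbx21 in none.

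The genes above and all other gene lists were chosen with earlier results of these data known, so differences between lists are descriptions only. A list of 20 other genes linked to cDC2 gave fewer calls in the same direction. Of its 17 tested members, 2 were higher and 3 lower in untreated cDC2 (over all genes 4% were higher and 6.17% lower), with a median log2 fold change of -1.09. The higher ones were Cd4 and Relb, and the lower ones Irf4, Ltb and Tmem176b. Irf4, a factor that cDC2 depend on, stood at 2.61 ± 2.71 CPM in untreated cDC2 and 24.8 ± 10.7 CPM in cDC1 (-2.84 ± 0.60, adjusted p = 0.00326). Ltb, a lymphotoxin chain, was lower in cDC2 in each treatment, for example untreated (-4.40 ± 0.65, adjusted p = 0.00015). Clec12a, a C-type lectin, was higher in cDC2 with LPS (2.01 ± 0.48, adjusted p = 0.00858) and with LPS and PGPC (2.35 ± 0.46, adjusted p = 0.00241). With PGPC alone its libraries lay the other way without overlap, at 38.6 ± 13.5 CPM in cDC2 (n = 2) and 112 ± 22.4 CPM in cDC1, where it rose with PGPC (2.35 ± 0.46, adjusted p = 0.00683). Averaged over treatments, 2 of the list were higher and 6 lower, against 16.2% and 17.8% of all genes.

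Markers of other cells differed as well. Of 18 cDC1 markers, 1 (Cd36) was higher and 8 lower in untreated cDC2, where 4% of all genes were higher and 6.17% lower. Irf8 stood at 79.7 ± 22.4 CPM in cDC2 and 899 ± 391 CPM in cDC1, and Batf3 at 1.60 ± 1.92 and 34.3 ± 9.79 CPM. Xcr1, a defining receptor of cDC1, was near 0 in untreated cDC1 (0.177 ± 0.191 CPM). Of 11 tested plasmacytoid markers, 8 were lower and 0 higher in untreated cDC2. Of 16 monocyte or macrophage markers, 4 were higher and 1 (Ly6c2) lower in untreated cDC2, and 10 were higher and 1 (Ccr2) lower with LPS, where 5.59% of all genes were higher and 2.19% lower. Adgre1, which encodes F4/80, stood at 361 ± 62.7 CPM in untreated cDC2 and 41.5 ± 21.9 CPM in cDC1 (3.10 ± 0.67, adjusted p = 0.00371). The part of these cell types in the levels of the 8 genes was not tested.

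In cDC1, 4 of the 7 genes were called changed with LPS, in opposite directions. Itgam rose 5.31-fold, from 54.8, 31.5 and 42.5 CPM to 201, 279 and 198 CPM (2.41 ± 0.47, adjusted p = 0.000803). Zeb2 rose 2.22-fold, from 88.2, 46.6 and 95.1 CPM to 132, 197 and 180.5 CPM (1.15 ± 0.38, adjusted p = 0.0362). Libraries with LPS lay wholly above untreated ones for both, and 2 of 7 genes rose against 8.54% of all genes. Zeb2's call was lost without the filter, without replicate 2 or 3 of the LPS group (0.95 and 1.00) and without replicate 1 or 2 of the untreated group (1.26 and 0.89). Sirpa stood at 886, 752 and 598 CPM with LPS after 503, 354 and 217 CPM, without overlap but not called (1.06 ± 0.46, adjusted p = 0.109).

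The M-CSF receptor Csf1r and the adaptor Dab2 fell with LPS in cDC1. Csf1r fell 3.96-fold, from 516, 582 and 646 CPM to 193, 133 and 113 CPM (-1.99 ± 0.50, adjusted p = 0.00736). Dab2 fell 4.62-fold, from 5.14, 17.4 and 11.9 CPM to 3.30, 1.17 and 2.65 CPM (-2.21 ± 0.58, adjusted p = 0.00908). Its counts were 6, 138 and 79 untreated and 37, 2 and 9 with LPS. The groups did not overlap, and 2 of 7 genes fell against 9.38% of all genes. Dab2's call was lost without replicate 2 of untreated cDC1 (-1.81, adjusted p = 0.0599). With all 36 libraries in the fit none of the 4 calls remained. Igf2r stayed low at 2.76, 0 and 1.47 CPM and Tbx21 at 1.16, 0.587 and 1.47 CPM. Beside this, 12 of 16 monocyte or macrophage markers fell and 2 (Adgre1 and Cd14) rose, with sums of 1911 to 5724 CPM untreated and 919.8 to 2097 CPM with LPS, and 5 of 6 tested neutrophil markers fell. The part of these cells in the changes was not tested.

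In cDC2, 1 of the 7 genes, Dab2, was called changed with LPS. It fell 8.67-fold, from 252, 301 and 198 CPM to 56.2, 22.1 and 6.84 CPM without overlap (-3.12 ± 0.55, adjusted p = 0.000382), against 2.7% of all genes that fell, and the call held in each alternative. Csf1r stood at 1411, 388 and 625 CPM with LPS after 1800.0, 1911 and 1308 CPM, where replicate 4 overlapped the untreated range (-1.05 ± 0.49, adjusted p = 0.234). Without that library it was called lower (-1.73, adjusted p = 0.0398). Sirpa was not called (0.94 ± 0.46, adjusted p = 0.256), and Igf2r stood at 31.7, 20.5 and 11.7 CPM after 50.5, 88.2 and 29.9 CPM with overlap. In these libraries 4 of 16 monocyte or macrophage markers fell (among them Ccr2, Cx3cr1 and Lyz2) and 2 rose (Cd14 and Fcgr1), against 5.82% of all genes that rose. Summed plasmacytoid markers were 299 to 667 CPM with LPS and 63.5 to 153 CPM untreated. Mast cell or basophil markers summed to 38.8 to 42.0 CPM with LPS and 7.47 to 12.4 CPM untreated, and endothelial markers to 130.3 to 349.7 CPM and 71.0 to 91.3 CPM, each without overlap. With LPS, 1 gene made up most of each sum: Bst2 (170 to 486 CPM), Kit (35.2 to 40.9 CPM) and Kdr (128 to 338 CPM). The plasmacytoid marker Siglech held no count there. The endothelial marker Vwf was lower with LPS, at 7.23 ± 6.89 CPM, than untreated, at 68.3 ± 2.37 CPM. The part of these markers in the fall of Dab2 was not tested.

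None of the 7 genes had an LPS effect called different between the kinds (edgeR and DESeq2), against 1.34% of all genes in edgeR. Itgam was the 1 gene with an unadjusted p under 0.05, its LPS effect in cDC2 minus that in cDC1 being -1.83 ± 0.64, adjusted p = 0.179 (95% interval -3.15 to -0.51). Without replicate 4 of cDC2 with LPS this was -2.56 and was called (adjusted p = 0.0182). For Dab2, which fell in both kinds, the 95% interval of the difference ran from -2.50 to 0.68.

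With PGPC alone none of the 7 genes was called changed by edgeR or DESeq2, against 2.08% of all genes called in cDC1 and 0.016% in cDC2 by edgeR. A lack of calls does not show a lack of change. In cDC1, 2 genes had an unadjusted p under 0.05. Sirpa stood at 161, 122 and 136 CPM with PGPC, wholly below the untreated 503, 354 and 217 CPM (-1.35 ± 0.46, adjusted p = 0.125). Itgam stood at 63.0, 91.0 and 145 CPM, wholly above the untreated 54.8, 31.5 and 42.5 CPM (1.23 ± 0.46, adjusted p = 0.163). Neutrophil markers summed to 532, 259 and 1163 CPM in these PGPC libraries and to 47.1, 199 and 83.7 CPM in the untreated ones, in replicates 1, 2 and 3. Replicate 3 with PGPC was highest for both Itgam and these markers, whose part in Itgam was not tested. Dab2 stood at 20.9, 21.8 and 27.7 CPM, above each untreated library.

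In cDC2 with PGPC, Itgam was the 1 gene with an unadjusted p under 0.05. It stood at 316 and 418 CPM after 149, 162 and 108 CPM, without overlap (1.37 ± 0.50, adjusted p = 0.797), and was called with only these groups fitted (adjusted p = 0.0106). Neutrophil markers were at 0.548 and 0 CPM in those PGPC libraries. Dab2 at 205 and 299 CPM and Csf1r at 1581 and 2118 CPM overlapped their untreated levels. The PGPC effect was called different between the kinds for none of the 7 genes by edgeR or DESeq2, against 0.168% of all genes in edgeR. Sirpa was the 1 gene there with an unadjusted p under 0.05 (cDC2 minus cDC1, 1.49 ± 0.68, adjusted p = 0.466).

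**Figure D4:**
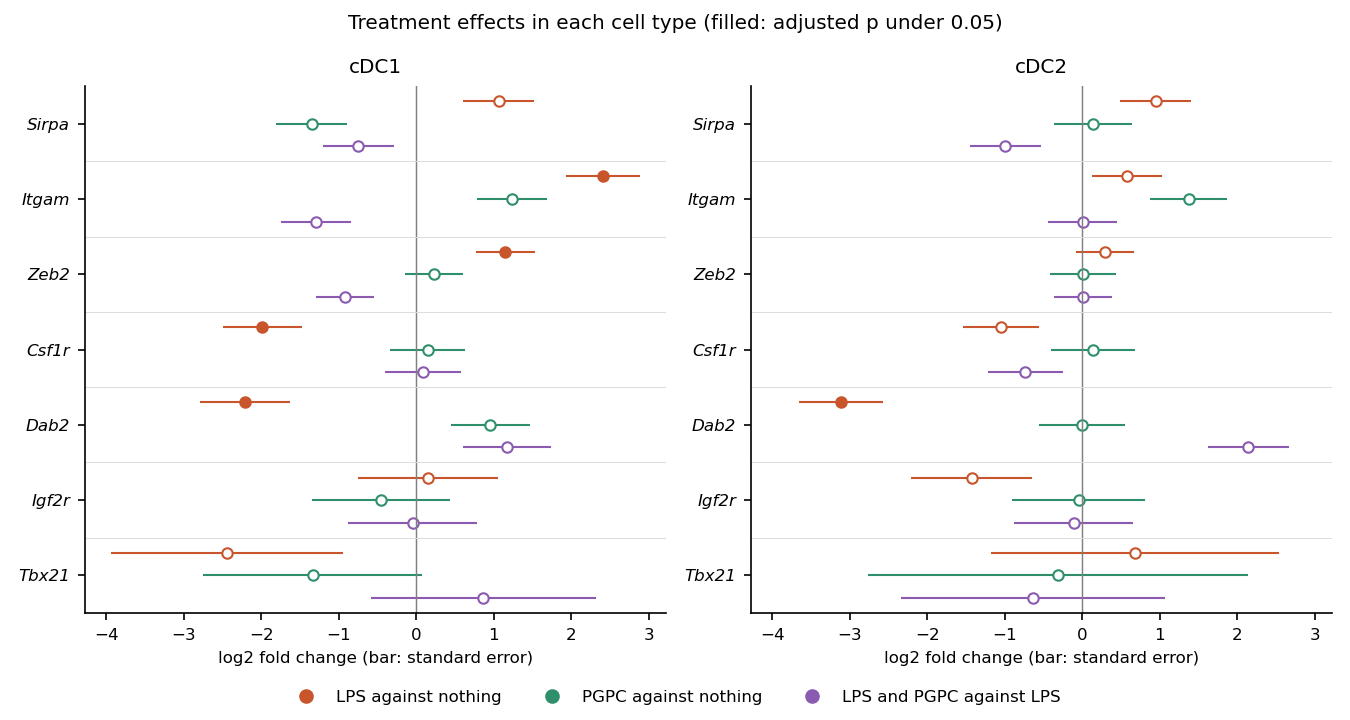
Log2 fold changes of the 7 tested genes for LPS, for PGPC, and for LPS with PGPC against LPS, in cDC1 and in cDC2, with standard errors as bars and filled points where the adjusted p was under 0.05. LPS has 4 filled points in cDC1 and 1, Dab2, in cDC2, and the other comparisons have none.

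PGPC added to LPS left all 7 genes uncalled against LPS alone (edgeR), against 1.94% of all genes called in cDC1 and 0.385% in cDC2. These comparisons share the LPS libraries with those of LPS against no treatment. Dab2 in cDC2 stood at 195, 109 and 80.1 CPM with both agents and 56.2, 22.1 and 6.84 CPM with LPS alone, wholly above but not called (2.14 ± 0.53, adjusted p = 0.0708). It was called in DESeq2 (adjusted p = 0.00532), with the replicate number as a block (adjusted p = 0.0341), without the filter (adjusted p = 0.00204) and without replicate 4 of the LPS group (3.09, adjusted p = 0.0091). The summed monocyte or macrophage markers of the groups overlapped, at 4104 to 10210.0 CPM with both agents and 3256 to 8561 CPM with LPS. Sirpa in cDC2 also had an unadjusted p under 0.05 (-0.99 ± 0.46, adjusted p = 0.579), with overlap.

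In cDC1 the 2 genes with an unadjusted p under 0.05 were Itgam and Zeb2. Itgam stood at 97.1, 107 and 71.6 CPM with both agents and 201, 279 and 198 CPM with LPS alone (-1.30 ± 0.45, adjusted p = 0.135), and DESeq2 called it (adjusted p = 0.0464). Zeb2 stood at 73.3, 101 and 95.1 CPM with both and 132, 197 and 180.5 CPM with LPS (-0.92 ± 0.38, adjusted p = 0.212). Libraries with both agents lay wholly below those with LPS for each gene. Csf1r stayed at 258, 127 and 82.6 CPM, and Dab2 stood at 3.97, 6.02 and 7.58 CPM, above each library with LPS alone. The effect of adding PGPC was called different between the kinds for none of the 7 genes by edgeR or DESeq2, against 0.00802% of all genes in edgeR, and Itgam was the 1 gene with an unadjusted p under 0.05 (cDC2 minus cDC1, 1.30 ± 0.63, adjusted p = 0.62).

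Genes that work with Dab2 and Igf2r were mostly not called between the kinds. Of 16 clathrin adaptors and cargo receptors, 1 was higher and 0 lower in untreated cDC2 (median 0.36), a share near the 4% of all genes that were higher. It was Lrp1, a large endocytic receptor, at 1732 ± 266 CPM in cDC2 and 210.1 ± 95.6 CPM in cDC1 (3.04 ± 0.53, adjusted p = 0.000629). Lrp1 also fell with LPS in cDC1 (-4.64 ± 0.59, adjusted p = 7.11e-06) and in cDC2 (-2.23 ± 0.52, adjusted p = 0.00545), and rose in cDC1 when PGPC was added to LPS (2.51 ± 0.54, adjusted p = 0.0145). Of 14 tested genes of mannose 6-phosphate sorting, 1 was higher in untreated cDC2, Gnptab, which encodes the enzyme that starts the tag (1.84 ± 0.50, adjusted p = 0.0197), and 0 were lower. M6pr, the other receptor for the tag, rose with LPS in cDC1 (1.53 ± 0.34, adjusted p = 0.00272). Plaur, the urokinase receptor, fell with LPS in cDC1 (-2.51 ± 0.55, adjusted p = 0.00225) and rose with PGPC added to LPS in cDC1 (3.03 ± 0.56, adjusted p = 0.00436) and cDC2 (2.49 ± 0.53, adjusted p = 0.0318).

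Around Csf1r, 2 of 10 tested growth factor receptors, ligands and partners were higher and 2 lower in untreated cDC2 (median 1.06). Over all genes 4% were higher and 6.17% lower. Flt3, the receptor for the ligand in the culture, stood at 12.5 ± 4.35 CPM in cDC2 and 351 ± 107 CPM in cDC1 (-4.68 ± 0.44, adjusted p = 1.04e-06). Csf1, the gene of M-CSF, fell with LPS in cDC1 (-3.75 ± 0.52, adjusted p = 1.95e-05). Flt3 fell with LPS in cDC1 (-1.69 ± 0.37, adjusted p = 0.00219) and rose in cDC2 (2.04 ± 0.40, adjusted p = 0.00137), and that difference was itself called (3.73 ± 0.55, adjusted p = 0.00102).

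Around Sirpa, 0 of 7 genes of the SIRPα and CD47 axis were higher and 1 lower in untreated cDC2, namely Ptpn6, which encodes the phosphatase SHP-1 (-1.61 ± 0.38, adjusted p = 0.00688). Beside this and the next list, 4% of all genes were higher and 6.17% lower. Cd47 rose with LPS in cDC2 (1.82 ± 0.34, adjusted p = 0.000855). Of 9 tested beta 2 integrins and partners of Itgam, 1 was higher and 0 lower in untreated cDC2, Itgb2, the chain that pairs with CD11b (1.25 ± 0.39, adjusted p = 0.0421). Itgb2 rose with LPS in cDC1 (1.11 ± 0.39, adjusted p = 0.0489). The ligand gene Icam1 rose with LPS in cDC1 (4.06 ± 0.54, adjusted p = 1.09e-05) and in cDC2 (3.38 ± 0.53, adjusted p = 0.00012).

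Among 16 tested fate factors listed with Zeb2, 1 (Relb) was higher and 4 were lower in untreated cDC2, the latter being Irf8, Batf3, Irf4 and Id2. For this list and those below, the shares over all genes were 4% higher and 6.17% lower. Of 10 tested genes of the T-bet pathway, 2 were lower, Runx3 (-1.69 ± 0.46, adjusted p = 0.0192) and Hlx (-2.12 ± 0.65, adjusted p = 0.0382), and 0 were higher. Stat4 rose with LPS in cDC1 (2.46 ± 0.66, adjusted p = 0.0106) and cDC2 (4.82 ± 0.77, adjusted p = 0.000156). Of 6 tested junctional adhesion genes listed with Esam, 1 was lower in untreated cDC2, Jaml (-6.54 ± 1.08, adjusted p = 0.000383), and 0 were higher.

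Some of the 8 genes varied together from library to library. Pearson's r of log2(CPM + 1) between Itgam and Zeb2 was 0.85 over 23 libraries, 0.85 over 12 of cDC1 and 0.68 over 11 of cDC2. For Dab2 and Igf2r it was 0.87 over all, 0.34 within cDC1 and 0.76 within cDC2. Csf1r was not apart from these, with r of 0.78, 0.74 and 0.56 with Dab2 and 0.66, -0.13 and 0.83 with Igf2r, in the same order. Sirpa and Dab2 ran opposite within cDC1 (-0.92) and had r = -0.12 within cDC2. These libraries share groups and depth, so the values are descriptions without a test.

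Among 8774 genes with enough signal, those most like each of the 8 were ranked by the same r over 23 libraries. Kank2 was most like Csf1r (0.93), Bcar3 most like Dab2 (0.92), Slc38a7 most like Sirpa (0.92), Pik3ap1 most like Itgam (0.91) and Actr1a most like Zeb2 (0.93). Plod1 was most like Igf2r (0.93), but within cDC1, where Igf2r was near 0, r was 0.06. Tbx21 and Esam, with few counts, reached 0.73 with Cyb561a3 and 0.63 with Wfdc17.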

How the data were processed

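RNA from about 2000 cells' worth of lysate was amplified by Smart-Seq2 and sequenced as Nextera XT libraries, per the labels' protocols. The authors deposited expected counts per gene symbol from RSEM on GRCm38, after bcl2fastq 2.2, per the submitters' processing notes. Which aligner, annotation and RSEM version served is not given in the sources used here. Expected counts were rounded to whole numbers, which changed 21.0% of nonzero values. Genes passed edgeR's filterByExpr (minimum count 10, minimum total 15), which kept 12464 of 53299. One model of 8 group means over 23 libraries was fitted with edgeR 4.0.16 (limma 3.58.1, R 4.3.3; TMM scaling, robust quasi-likelihood), with 14 contrasts and Benjamini-Hochberg adjustment over all genes tested. Standard errors are the log2 fold change over the square root of F.

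The script was tested on simulated data. Alternatives were DESeq2 1.42.0, median-ratio scaling, no filter, ribosomal RNA genes left out, all 36 libraries, only the compared groups, a replicate block, and leaving out each library. Gene positions come from GENCODE on GRCm38. The 8 genes and all gene lists were chosen with earlier results of these data known. All 8 are named in each comparison, with up to 4 genes of each other list by smallest adjusted p and the genes most like each by Pearson's r of log2(CPM + 1) among genes of at least 5 CPM on average. Cd36, Ly6c2, Ccr2, Cx3cr1, Lyz2, Cd14, Adgre1, Relb and Xcr1 are also named where a count or a label check needed it. Bst2, Kit, Kdr, Siglech, Vwf, Apoe, C1qb and Cd68 are named to describe sums of markers. All of these were named after their values were seen. Alum libraries were left out, as they held only 467 to 2613 genes. One gene of the lists is not reported here.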

Additional observations from a re-analysis of the deposited data

Results flagged for a closer look

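The 12 alum libraries and replicate 6 of cDC2 with PGPC entered no comparison. Over 6 counts of one of the 8 genes were found there in a few of them, given here as counts scaled to the library total (CPM, without further correction). Zeb2 stood at 1404 CPM in replicate 1 of cDC1 with LPS and alum and at 329.6 CPM in replicate 5 of cDC2 with LPS and alum. Csf1r stood at 599 CPM in replicate 2 of cDC1 with LPS and alum. In cDC2 with alum, Csf1r stood at 9452 CPM in replicate 4 and 2423 CPM in replicate 6, and Sirpa at 4146 CPM in replicate 4. In the other replicates of these groups the same gene was near or at 0. Zeb2 held no count there, and Csf1r held 1 count in replicates 1 and 3 of cDC1 with LPS and alum. In cDC2 with alum, Csf1r held 6 counts in replicate 5, and Sirpa 3 and 2 counts in replicates 5 and 6. An effect of alum on these genes was not tested. Esam, Tbx21 and Igf2r held no count in any of the 13 libraries.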

How the results depend on the processing

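For the differences between the kinds and the treatment effects with an unadjusted p under 0.05, and for the difference of the LPS effect on Dab2, the alternatives gave 711 log2 fold changes of the 7 tested genes that kept their direction and side of the threshold, 41 that lost a call, 32 that gained one and 6 that changed sign. These 6 were between cDC2 and cDC1 with LPS, on leaving out 1 library. Itgam then ran from -0.82 to 0.24 (with 0.16 on 2 occasions), Zeb2 from -0.048 to 0.50, and Tbx21 from -5.75 to 0.12 (and 0.058). The other 44 treatment effects of the 7 genes, all with an unadjusted p of at least 0.05, were less stable, and 30 of them changed sign in at least 1 alternative while none was called in any (edgeR and DESeq2). Of the 7 genes, those called with all 36 libraries in the fit numbered 2 untreated, 1 with LPS, 2 with PGPC, 1 with LPS and PGPC, 2 averaged, and 0 for LPS in cDC1. The square root of the common dispersion was 0.833 in that fit and 0.545 with 23 libraries. DESeq2 called 5 between the kinds with LPS and PGPC, and 1 for PGPC added to LPS in each kind. With only the compared groups 1 was called for PGPC in cDC2, and without the filter 1 for PGPC added to LPS in cDC2. Leaving out each library gave 2 to 4 genes untreated, 3 to 4 with LPS, 3 to 4 with PGPC, 1 to 4 with LPS and PGPC, 6 to 7 averaged, 2 to 4 for LPS in cDC1, 1 to 2 for LPS in cDC2, 0 to 1 for PGPC added to LPS in cDC2 and 0 to 1 for the difference of the LPS effect. Whether the replicate numbers pair the libraries was not settled. Deviations of same-numbered libraries correlated between -0.19 and 0.52 (median 0.03, 8 of 33 pairs over 0.1). Those of differently numbered ones correlated between -0.45 and 0.33 (median -0.02, 5 of 66 pairs over 0.1). With the replicate number as a block, 1 gene (Dab2) was called for PGPC added to LPS in cDC2 and 5 for LPS in cDC1, where Sirpa was added. Counts over all genes moved more: untreated, 1267 genes were called, against 119 with all 36 libraries and 1858 with only the compared groups. LPS in cDC1 called 2234, against 597 with all 36 libraries and 2789 in DESeq2, and PGPC in cDC2 called 2, against 210 with only the compared groups. PGPC in cDC1 called 259, against 8 with only the compared groups and 637 in DESeq2. Leaving out replicate 5 of cDC2 with PGPC took the calls between the kinds with PGPC from 1500 to 443. Beyond the settings and values above, the cause was not tested. Esam, with 83 counts, could not be tested at this depth.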
